A study of Bos taurus with 6 samples.

Results

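Annotated microRNA loci were followed in the poly(A) RNA of bovine fetal fibroblasts (bEFs). A row of the deposited gene table was a member when its name began with MIR and a digit, with MIRLET, or with bta-mir or bta-let, and 299 of 17663 rows did. Libraries FT_1 to FT_3 came from 3 transgenic fetuses with an exogenous fat-1 gene, and WT_1 to WT_3 from 3 wild-type Luxi cattle fetuses, 1 library per fetus and n = 3 per group. All fetuses were 50 to 60 days old, and the primary cultures came from soft tissue of the trunk. Both genotypes were therefore cultures of mixed fetal tissue, each fetus stood for 1 culture, and the FT cells differed from WT cells in carrying the transgene and in coming from other animals. For each library the table gave counts beside FPKM, in which fragments are divided by the length of the row and by the library's total. Total counts were 63366834, 48167642 and 54204446 in FT_1 to FT_3 and 69777641, 51310741 and 54271927 in WT_1 to WT_3.

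Most microRNAs are cut from long transcripts that RNA polymerase II makes. The nuclear enzyme DROSHA with its partner DGCR8 releases a hairpin, exportin 5 (XPO5) carries it to the cytoplasm, and DICER1 trims it to the short strand that an Argonaute protein such as AGO2 uses to find messenger RNAs. Mature strands carry no poly(A) tail, so a poly(A) library reads what lies over the hairpin in long RNA: unprocessed primary transcripts, or the introns and exons of a gene that holds the locus. The values here are reads over hairpin intervals in long RNA and are not levels of mature microRNAs.

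FT_1 stood apart from the other FT libraries. The biological coefficient of variation (how far a gene's level varies in relative terms once counting noise is taken off) was 65.7% between FT_1 and FT_2 and 66.6% between FT_1 and FT_3, but 8.39% between FT_2 and FT_3 and 10.1% to 13.6% between WT libraries. Marker lists moved with that library. The 10 fibroblast genes, led by VIM (the highest over all 6 libraries together), summed to 8551 FPKM in FT_1, against 20028 and 19314 in the other FT libraries and 21164 to 21590 in WT. The 5 epithelial genes summed to 138 FPKM in FT_1, where KRT8 led, and to 7.83 to 13.9 in the other 5 libraries, most of it CDH1. KRT8 had 0.95 and 0.61 FPKM in FT_2 and FT_3, and KRT18 had 0.34 and 0.18. Both were listed at 0 in every WT library, while EPCAM was listed at 0 outside FT_1. The 3 mesothelial genes had a summed level of 199.7 FPKM in FT_1, 45.0 in FT_2, 46.3 in FT_3 and 2.32 to 3.48 in WT. MSLN led, and the other members did not follow it. UPK3B had 1.03 FPKM in FT_1, 0.10 in FT_2, 0.09 in FT_3 and 0.20 to 0.25 in WT. WT1 was listed at 0 in all 3 FT libraries and at 0.03 to 0.05 in WT. Of the fibroblast genes, COL1A1, COL1A2, COL3A1, VIM and DCN lay between 433 and 8178 FPKM in every library. Each of these was lowest in FT_1, as were LUM, S100A4 and PDGFRB, while PDGFRA and THY1 were highest there. LUM had 551 FPKM in FT_1 beside 2759 and 2559 in FT_2 and FT_3, and PDGFRB 22.8 beside 96.7 and 107. The fibroblast label thus fitted FT_2, FT_3 and WT, and these genes do not settle it for FT_1.

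Other lists were low. The summed FPKM was 0.35 to 1.26 for 4 endothelial genes led by PECAM1, 0.77 to 3.02 for the 2 blood genes in the table led by CD68, and 0.31 to 2.29 for 3 cartilage genes, led by SOX9 through FT_1 and by ACAN in each WT library. For the 2 neural genes in the table, led by TUBB3, it was 1.24 to 3.74. The 2 muscle genes in the table, led by DES, summed to 3.78 to 5.77 FPKM in FT and to 1.13 to 1.93 in WT, but they went opposite ways. DES had 3.17 to 5.74 FPKM in FT and 0 to 0.07 in WT, and MYF5, a factor of muscle precursors that was not called, 0.03 to 0.61 in FT and 1.06 to 1.93 in WT. By the fit over all genes described with the called loci, 1 fibroblast gene (PDGFRA), 1 muscle gene (DES) and 1 mesothelial gene (MSLN) were higher in FT, 1 blood gene (CD68), 1 neural gene (TUBB3) and 1 cartilage gene (ACAN) were lower, and no epithelial or endothelial gene was called. The part of these cell type markers in the results at the microRNA loci was not tested. In bulk RNA, fewer cells of a type and less RNA per cell cannot be told apart.

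The loci were sparsely read. Between 174 and 193 of the 299 loci had a count in a library, and between 24 and 34 had a count of at least 10. All 299 had a count in at least 1 library, 110 in every library, and 13 had at least 10 in every library. The median total over the 6 libraries was 6, and 175 loci had a total of 6 or lower. FT and WT libraries thus showed similar numbers of loci, and most of them rested on a handful of counts.

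**Figure D1:**
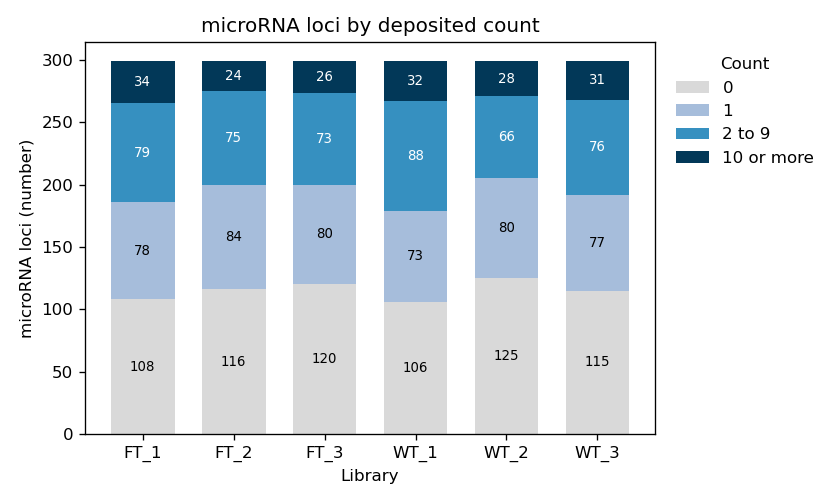
Number of microRNA loci (vertical axis) with a deposited count of 0, 1, 2 to 9, or 10 or more in each of the 6 libraries (horizontal axis). From 106 to 125 of the 299 loci were at 0 in a library, and 24 to 34 reached 10.

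A listed count of 1 was less than it seems. The loci were short, 46 to 149 bp with a median of 76 bp. In all 6 libraries the count of every locus equalled FPKM times interval length times 1 constant per library, rounded up to a whole number, within the 0.005 to which FPKM is rounded. Between 73 and 84 loci per library were listed at 1, and by that relation such a count may stand for less than 1. The 2 columns are therefore the same measurement on 2 scales.

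Summed over all loci, counts per 1e6 of the library total were 39.1, 35.5 and 38.7 in FT and 93.6, 92.6 and 100.1 in WT. A single row, bta-mir-2887-1 on chromosome 2, made up 52.6% to 55.8% of the summed count in WT. In FT it made up 34.5%, 6.95% and 0.334%. Without that row the sums were 25.6, 33.1 and 38.5 in FT on the same scale and 44.3, 40.9 and 44.9 in WT. The groups then still did not overlap, but by a far narrower margin. A second row of that name, on chromosome 27, was kept in these sums, with 2 counts in FT_3 and 130 in WT_2. Taking it off too would leave FT_3 and WT_2 almost level, so the separation rested on that row. All these sums are scaled by library totals alone. With that scaling the median log2 fold change of all genes, FT minus WT, was -0.12, against 0.03 in the fit described below. The part of the scaling in the gap between the groups was not tested.

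By position, 214 of the 299 loci (71.6%) lay wholly inside another gene of the table, 184 of them on its strand and 30 on the opposite strand. These 214 loci fell in 199 genes, of which 10 held more than 1 locus, led by HTT with 4. Within 10000 bp of another locus were 47 of the 299. The build behind the coordinates is not named for cattle, but 251 of the 299 had the chromosome, start and end of a RefSeq microRNA on ARS-UCD2.0. Coordinates below are those of the deposited table. Whether a locus lay in an exon or an intron of its host was not analysed here, and how reads shared by a locus and its host were counted is not given in the sources used here, so each locus inside a gene carries that uncertainty.

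The counts of all genes were then compared between FT and WT with edgeR's quasi-likelihood test. After its filter on low counts 13482 genes were tested, and 5261 (39.0%) were called at a Benjamini-Hochberg adjusted p under 0.05, 2714 higher (20.1%) and 2547 lower (18.9%) in FT. With library totals alone as the scaling the split was 2049 higher and 3394 lower. Of the 299 microRNA loci 30 passed the filter and 269 did not. Among those 30, 8 were called (26.7%), 4 higher and 4 lower in FT, so the loci were called no more often than genes at large. Their median log2 fold change was -0.02, against 0.03 over all genes tested. FPKM ranges of FT and WT did not overlap at 15 of the 30 loci (6 higher in FT and 9 higher in WT), against 58.7% of all genes tested. Leaving out FT_1, 62.1% of 13765 genes were called, and of 33 loci tested 5 were higher and 6 lower in FT.

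**Figure D2:**
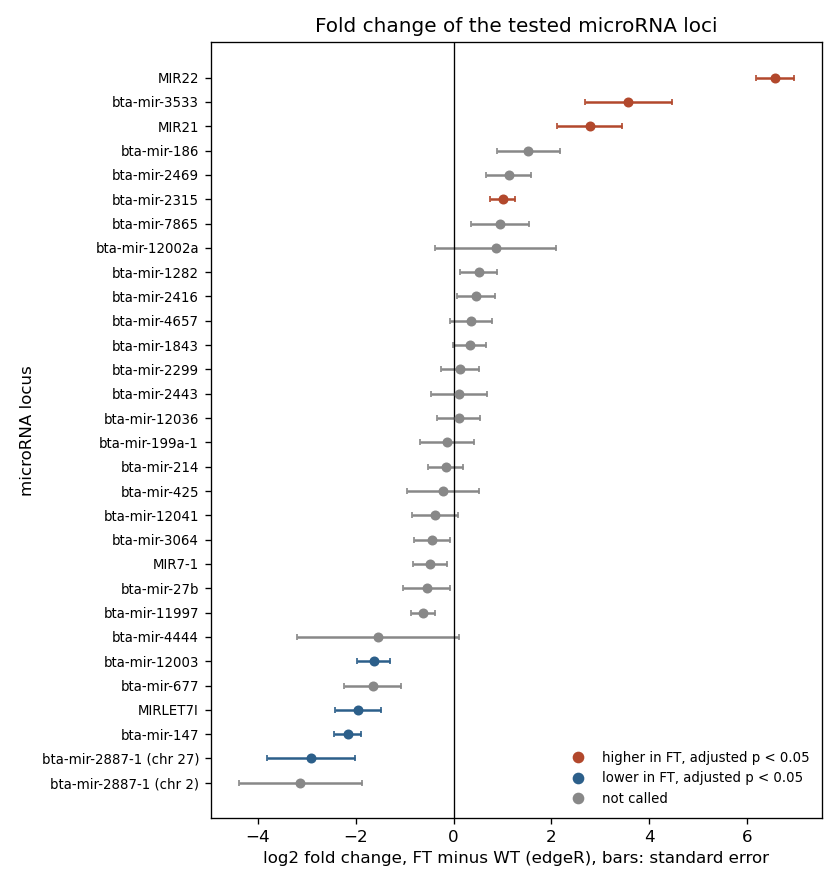
Log2 fold change, FT minus WT, of the 30 tested microRNA loci by edgeR (horizontal axis), with bars for the standard error. The 8 called loci are coloured, from MIR22 at 6.58 to bta-mir-2887-1 on chromosome 27 at -2.92, and 22 loci in grey were not called.

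MIR22, the hairpin of a microRNA found in many tissues and studied in fibroblast ageing and heart muscle, differed most among the tested loci. It lies on chromosome 19 from 22811560 to 22811660, minus strand. Counts were 112, 75 and 92 in FT_1 to FT_3 and 1 in each WT library. Every FT library was far above every WT library, and FT_1 did not differ from its group here. FPKM was 16.0 ± 1.07 in FT and 0.127 ± 0.0306 in WT (mean ± SD, n = 3). The WT counts were rounded up from an estimated sum of 2.24. The ratio of the summed counts, 279 to 3, scaled by library totals, was 98.4, with an exact 95% interval of 33.3 to 480 that covers counting error only. The locus passed the filter on low counts through its FT counts alone, the group where it was high. The fitted log2 fold change was 6.58 ± 0.39 (SE), with a Benjamini-Hochberg adjusted p of 5.2e-04 from edgeR. It was 6.55 without FT_1, and the call held whichever library was left out.

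The gene that holds MIR22, on the same strand, has no symbol in the table (ENSBTAG00000048952). Its counts were 3408, 2420 and 2372 in FT and 2122, 1770 and 1592 in WT, so it was read at a substantial level in both groups. It too was higher in FT, by a log2 fold change of 0.80 ± 0.11 (edgeR, Benjamini-Hochberg adjusted p = 0.0029). Per 1000 counts of the host, the locus had 32.9, 31.0 and 38.8 in FT and 0.471, 0.565 and 0.628 in WT. On the FPKM scale the locus stood at 16.98 beside 26.7 for its host in FT_1, and at 0.10 beside 15.2 in WT_1. Reads over the hairpin thus differed between the groups by much more than reads over the gene around it. In RefSeq MIR22 overlaps TLCD2, which in the table lies 3720 bp away, so its host depends on the annotation. TLCD2 had 20, 15 and 32 counts in FT and 25, 0 and 10 in WT and was not called, and WDR81 on the other side was higher in FT with a log2 fold change of 0.38.

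MIR21 encodes a microRNA long studied in fibrosis and tumours, and in human cells its primary transcript overlaps the end of VMP1, a gene of autophagy. The locus lies on chromosome 19 from 10803462 to 10803553, plus strand, 660 bp beyond the 3′ end of VMP1 in the table. Counts were 26, 25 and 34 in FT and 9, 1 and 5 in WT. All FT libraries were above all WT libraries, and FT_1 lay with the others. FPKM was 5.35 ± 1.15 in FT and 0.757 ± 0.560 in WT (mean ± SD, n = 3). MIR21 also passed the filter through its FT counts alone. The fit gave a log2 fold change of 2.78 ± 0.67 (SE), with an edgeR Benjamini-Hochberg adjusted p of 0.021, and 2.92 without FT_1. VMP1 itself had 57.6, 46.4 and 48.9 FPKM in FT and 54.8, 54.2 and 53.8 in WT, and its log2 fold change of 0.07 ± 0.09 was not called (edgeR, Benjamini-Hochberg adjusted p = 0.60). MIR21 lost its call without FT_2, FT_3, WT_1 or WT_3, with edgeR adjusted p values of 0.058, 0.063, 0.052 and 0.078.

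The bta-mir-3533 locus lies inside ACTG1, the cytoplasmic gamma actin gene, on its strand (chromosome 19, 51261145 to 51261228). It was read at 13, 41 and 101 counts in FT and at 8, 4 and 4 in WT. The 3 FT libraries differed widely, and FT_1 came close to WT_1. This locus passed the filter through its FT counts alone. Its log2 fold change was 3.57 ± 0.89 (SE), with a Benjamini-Hochberg adjusted p of 0.023 from edgeR, and 4.05 without FT_1 (edgeR adjusted p = 2.2e-04). Without FT_3 the value was 2.67. ACTG1 had 257673 to 316622 counts in FT and 322805 to 426421 in WT, with a log2 fold change of -0.08 ± 0.12 that was not called. The locus thus took 0.0411, 0.159 and 0.347 counts per 1000 of ACTG1 in FT and 0.0122 to 0.0188 in WT, a minute share of a highly read gene. Without FT_2, FT_3, WT_1, WT_2 or WT_3 the call was lost, with edgeR adjusted p values from 0.052 to 0.092.

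A smaller rise was seen at bta-mir-2315 (chromosome 15, 42178557 to 42178636), which lies 807 bp beyond the 3′ end of RNF141 in the table and overlaps RNF141 in RefSeq. It had 100, 93 and 87 counts in FT and 72, 46 and 49 in WT. The groups did not overlap, and the 3 FT libraries lay close together. The locus had a log2 fold change of 1.0 ± 0.26 (SE; edgeR, Benjamini-Hochberg adjusted p = 0.027) and 1.06 without FT_1. RNF141, a ring finger gene, was also higher in FT, by 0.77 ± 0.12, with 10.1, 12.2 and 11.7 FPKM in FT and 7.50, 7.35 and 7.46 in WT. Locus counts per 1000 counts of RNF141 were 102, 103 and 88.9 in FT and 89.8, 79.6 and 79.0 in WT, so most of the difference at the locus was also present in the gene. The call was lost without any 1 of the libraries other than FT_1, with edgeR adjusted p values from 0.069 to 0.095.

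**Figure D3:**
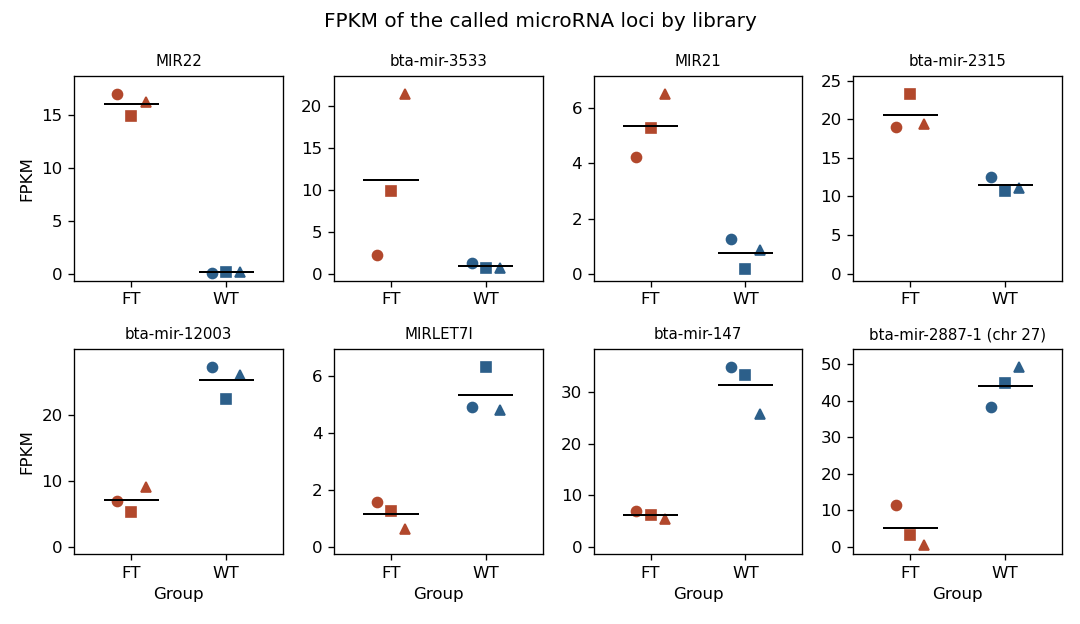
FPKM (vertical axes, linear) of the 8 called microRNA loci in FT and WT libraries. Circles, squares and triangles are replicates 1, 2 and 3, and the line is the mean of 3; no FT value lies within the WT range at these loci, and FT_1 is nearest to WT at bta-mir-3533.

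Of the loci lower in FT, bta-mir-147 had the smallest p. It lies on chromosome 10 from 65015857 to 65015936, inside C10H15orf48 and on its strand. Related genes of other mammals encode a small mitochondrial protein that is induced in inflammation. Locus counts were 37, 25 and 24 in FT and 200, 141 and 115 in WT. FPKM was 6.12 ± 0.815 in FT and 31.4 ± 4.84 in WT (mean ± SD, n = 3), with no overlap and with FT_1 beside its group. For the locus the log2 fold change was -2.17 ± 0.28 (SE), with an edgeR Benjamini-Hochberg adjusted p of 0.0027. It was -2.26 without FT_1, and the call held whichever library was left out. The host fell with it, from 9.01, 7.69 and 7.75 FPKM in WT to 2.49, 2.34 and 2.02 in FT, a log2 fold change of -1.68 ± 0.15 (edgeR, Benjamini-Hochberg adjusted p = 0.0011). Per 1000 host counts the locus had 143, 136 and 134 in FT and 196, 220 and 168 in WT, so most of the difference at the locus was also present in its host.

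MIRLET7I is a locus of the let-7 family, whose mature members rise as cells differentiate and hold back growth genes such as LIN28B and HMGA2. It lies on chromosome 5 from 50983045 to 50983152, outside other genes of the table, 11903 bp beyond the 3′ end of MON2. Counts were 12, 7 and 4 in FT and 38, 36 and 29 in WT. Each FT library was below each WT library, and FT_1 was the nearest to WT. MIRLET7I passed the filter through its WT counts, the group where it was high. Its log2 fold change was -1.95 ± 0.48 (SE; edgeR, Benjamini-Hochberg adjusted p = 0.022) and -2.26 without FT_1. MON2, a gene of endosome traffic, had a log2 fold change of -0.23 ± 0.07 and was not called. PPM1H on the other side, 44953 bp away, had 4727 counts in FT_1, 135 and 186 in the other FT libraries and 331 to 519 in WT. Without FT_2, FT_3, WT_1, WT_2 or WT_3 the call at MIRLET7I was lost, with edgeR adjusted p values from 0.060 to 0.085.

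The table held 6 other let-7 loci, bta-let-7a-3, bta-let-7d, MIRLET7C, MIRLET7E, MIRLET7F1 and MIRLET7G, and none passed the filter. Their counts summed to 14, 6 and 3 in FT and 18, 5 and 3 in WT. At bta-let-7d there were 7, 2 and 1 counts in FT and 8, 2 and 2 in WT, and at MIRLET7E 4, 4 and 2 in FT and 5, 2 and 0 in WT. The rest of the family was thus read too thinly to be tested.

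The bta-mir-12003 locus (chromosome 25, 7897778 to 7897833) lies inside C25H16orf72, on its strand, a gene that RefSeq names HAPSTR1. It had 26, 15 and 29 counts in FT and 109, 67 and 81 in WT. All 3 FT libraries were well below WT. The log2 fold change was -1.64 ± 0.34 (SE; edgeR, Benjamini-Hochberg adjusted p = 0.013) and -1.60 without FT_1. The host had 18.6, 20.9 and 18.6 FPKM in FT and 22.4, 20.3 and 24.6 in WT, with a log2 fold change of -0.05 ± 0.11 that was not called. Locus counts per 1000 host counts were 14.3, 9.61 and 18.5 in FT and 45.2, 41.6 and 39.3 in WT, a difference that the whole gene did not show. Leaving out WT_1 or WT_3 ended the call, with edgeR adjusted p values of 0.061 and 0.0505.

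The name bta-mir-2887-1 belongs to a pair of rows of equal length (55 bp), on chromosome 2 (121575106 to 121575160) and on chromosome 27 (6217555 to 6217609). Reads of near-identical copies may be split between rows, and each value is uncertain for that reason. The chromosome 2 row had 856, 119 and 7 counts in FT and 3440, 2652 and 2993 in WT. The chromosome 27 row had 42, 9 and 2 in FT and 151, 130 and 151 in WT. In both rows every FT library was below every WT library, and FT_1 was the nearest to WT. The count on chromosome 2 was 19.8 to 22.8 times that on chromosome 27 in the WT libraries, 20.4 times in FT_1, 13.2 in FT_2 and 3.5 in FT_3.

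Both bta-mir-2887-1 rows passed the filter through their WT counts, the group where they were high. By edgeR the chromosome 27 row had a log2 fold change of -2.92 ± 0.89 (SE) and a Benjamini-Hochberg adjusted p of 0.045, and -4.33 without FT_1 (edgeR adjusted p = 6.6e-05). Leaving out FT_2 or any 1 WT library ended its call, with edgeR adjusted p values from 0.108 to 0.121. The chromosome 2 row, with -3.14 ± 1.26, was not called (edgeR, Benjamini-Hochberg adjusted p = 0.096), but without FT_1 its value was -5.21 with an adjusted p of 3.0e-05. With all libraries it was called by DESeq2 (adjusted p = 0.046) and by limma on log2(FPKM + 1) and log2(FPKM + 0.1) (adjusted p = 0.042 and 0.047), so the call of the most abundant locus depended on the test as well as on FT_1.

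Beside the chromosome 27 row, 5038 bp away on the same strand, lies RF00002, a row of the 5.8S ribosomal RNA family. Its counts were 156, 83 and 75 in FT and 1367, 1066 and 1440 in WT. This row also was lower in each FT library than in each WT library, with a log2 fold change of -3.44 ± 0.26 (edgeR, Benjamini-Hochberg adjusted p = 8.0e-04). The unnamed gene that holds the chromosome 2 row on its strand (ENSBTAG00000051364) had 136, 84 and 81 counts in FT and 662, 500 and 447 in WT, a log2 fold change of -2.20 ± 0.20 (edgeR, Benjamini-Hochberg adjusted p = 0.0011). Ribosomal RNA has no poly(A) tail in the main, and its part in the values of bta-mir-2887-1 was not tested. Among the FT libraries the RF00002 counts spread far less than those of either bta-mir-2887-1 row.

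**Figure D4:**
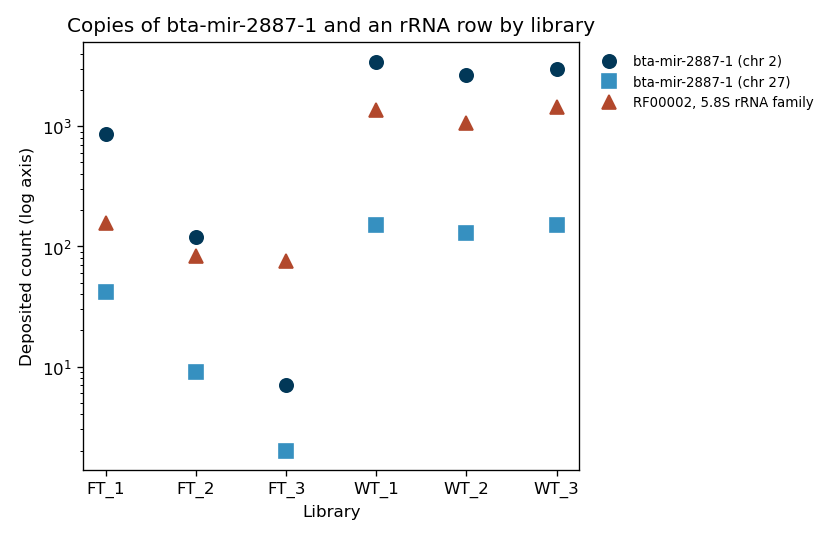
Deposited counts (vertical axis, log scale) of both bta-mir-2887-1 rows and of RF00002 in the 6 libraries (horizontal axis). WT libraries lie close together, while the chromosome 2 row runs from 856 in FT_1 to 7 in FT_3 and RF00002 from 156 to 75.

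At several uncalled loci 1 library set the value. The bta-mir-4444 row adjoins the 5′ end of HNRNPA3, which encodes an RNA-binding protein, and had 1, 1 and 181 counts in FT and 228, 176 and 236 in WT. FT_3 therefore lay with WT, and FT_1 and FT_2 had almost no reads. The row passed the filter through its WT counts, with FT_3 beside them. Its log2 fold change was -1.54 ± 1.66 with all libraries and -7.38 without FT_3 (edgeR, Benjamini-Hochberg adjusted p = 0.50 and 0.0050). HNRNPA3, which the locus overlaps in RefSeq, showed no such split, with 127, 124 and 132 FPKM in FT and 214, 234 and 230 in WT. It was called lower in FT, with a log2 fold change of -0.67 ± 0.08 (edgeR, Benjamini-Hochberg adjusted p = 0.0022).

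Another such locus was bta-mir-12002a, with 0, 32 and 41 counts in FT and 21, 15 and 15 in WT. The gene 664 bp away, ENSBTAG00000006851, described in the table as a C-type lectin gene, had the same shape, with 28, 493 and 520 counts in FT and 336, 220 and 312 in WT. Both were low in FT_1 alone. The locus had a log2 fold change of 0.86 ± 1.25 that was not called (edgeR, Benjamini-Hochberg adjusted p = 0.62), and 1.45 without FT_1, with an edgeR adjusted p of 0.034. The bta-mir-2404-1 locus had 2 counts in every FT library and 64, 3 and 31 in WT, and did not pass the filter with all libraries. Without FT_1 it passed through its WT counts alone, and it is 1 of the 6 loci called lower there (log2 fold change -3.51, edgeR adjusted p = 0.027).

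The bta-mir-3064 locus lies in DDX5, an RNA helicase that itself assists DROSHA, and had 296, 513 and 677 counts in FT and 1076, 618 and 796 in WT. Groups overlapped, and the log2 fold change of -0.44 ± 0.37 stood beside -0.27 ± 0.18 for DDX5, neither called. MIR7-1 lies in HNRNPK, a gene of an RNA-binding protein, with 51, 21 and 32 counts in FT and 65, 52 and 49 in WT and a log2 fold change of -0.48 ± 0.35. HNRNPK itself was called lower in FT, with a log2 fold change of -0.39 ± 0.08 (edgeR, Benjamini-Hochberg adjusted p = 0.012). For both loci the value lay within its standard error of the host's.

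The bta-mir-677 locus lies in ATP5F1B, the beta subunit gene of mitochondrial ATP synthase. Counts were 5, 7 and 13 in FT and 38, 38 and 19 in WT, with no overlap. The locus passed the filter on low counts through its WT counts, the group where it was high. The log2 fold change was -1.65 ± 0.58 and was not called (edgeR, Benjamini-Hochberg adjusted p = 0.067), beside -1.39 ± 0.11 for ATP5F1B, which was called lower. The locus was called lower with library totals alone (edgeR adjusted p = 0.049) and by limma on log2(FPKM + 1) and log2(FPKM + 0.1) (adjusted p = 0.016 and 0.020). At bta-mir-27b in AOPEP, an aminopeptidase gene, counts were 35, 17 and 10 in FT and 39, 30 and 34 in WT, and the log2 fold change was -0.55 ± 0.48, beside -0.50 ± 0.12 for the host. AOPEP was called lower and the locus was not.

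On the side of higher values, bta-mir-186 in ZRANB2, a splicing factor gene, had 29, 15 and 15 counts in FT and 12, 2 and 10 in WT. It did not pass the threshold, with a log2 fold change of 1.52 ± 0.64 (edgeR, Benjamini-Hochberg adjusted p = 0.11), beside 0.07 ± 0.10 for ZRANB2. The bta-mir-2469 locus, on the strand opposite to TOPORS, a ubiquitin and SUMO ligase gene, had 25, 17 and 16 counts in FT and 8, 9 and 13 in WT. Its log2 fold change of 1.12 ± 0.46 was not called either by edgeR, though limma called it on both FPKM scales (adjusted p = 0.032 and 0.036), and TOPORS was called higher with 0.24 ± 0.07. At both loci the FPKM ranges of the groups did not overlap, and the estimate was larger than that of the gene around it. Both loci had passed the filter on low counts through their FT counts, the group where they were high.

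Further loci inside genes were not called. The log2 fold change was 0.46 ± 0.38 for bta-mir-2416 in MACF1, 0.52 ± 0.38 for bta-mir-1282 in SERINC4 and 0.95 ± 0.59 for bta-mir-7865 in PPP6R1. Of these hosts MACF1 (0.74 ± 0.15) and PPP6R1 (0.76 ± 0.06) were called higher and SERINC4 (0.08 ± 0.20) was not called. In RefSeq bta-mir-1282 overlaps SERF2 and not SERINC4, so its host depends on the annotation. No difference at these 3 loci was detectable beyond the spread between libraries.

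The pair bta-mir-214 and bta-mir-199a-1, microRNAs of mesenchymal cells made from 1 long antisense transcript, lies inside DNM3 on the opposite strand. The first had 39, 37 and 54 counts in FT and 55, 61 and 54 in WT, and the other 14, 20 and 18 in FT and 34, 9 and 28 in WT. Groups overlapped at both, and the log2 fold changes were -0.16 ± 0.35 and -0.14 ± 0.56. DNM3 had 93 counts in FT_1, 572 and 687 in FT_2 and FT_3, and 379 to 658 in WT. On the FPKM scale FT_1 was also the lowest FT library at both loci, with 5.28 beside 6.63 and 8.64 and 1.82 beside 3.49 and 2.79, a smaller gap than at DNM3. Without FT_1 the loci stood at 0.0046 and 0.08.

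Outside other genes, bta-mir-11997 had 78, 64 and 69 counts in FT and 171, 118 and 99 in WT. These groups did not overlap, but the log2 fold change of -0.63 ± 0.25 was not called (edgeR, Benjamini-Hochberg adjusted p = 0.092). It was called lower with library totals alone (edgeR adjusted p = 0.0495) and by limma on both FPKM scales (adjusted p = 0.0050 and 0.0049). KLF13, a transcription factor gene that ends 3756 bp before it on the same strand, was called higher in FT with 1.06. Locus and neighbour thus had estimates of opposite sign.

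The other 7 tested loci outside genes of the table had log2 fold changes between -0.38 and 0.36 and were not called. They were bta-mir-2299 near B3GLCT, bta-mir-1843 near TNPO3, bta-mir-4657 near PURB, bta-mir-12036 near SPRY1, bta-mir-12041 near METTL16, bta-mir-425 near DALRD3, and bta-mir-2443. In RefSeq, where gene ends differ, bta-mir-2299 overlaps B3GLCT, bta-mir-12036 SPRY1, bta-mir-12041 METTL16, bta-mir-2443 an unnamed protein-coding gene and bta-mir-1843 a long noncoding RNA, on either strand. At bta-mir-1843, 140 bp beyond the 5′ end of TNPO3, counts were 41, 22 and 34 in FT and 35, 27 and 27 in WT. TNPO3, a nuclear import gene, was called lower with a log2 fold change of -0.44, and the locus had 0.33 ± 0.34. SPRY1, a feedback inhibitor of growth factor signalling 1429 bp from bta-mir-12036, was called higher with 0.93, and the locus had 0.10 ± 0.43. PURB, 441 bp from bta-mir-4657, was called lower with -0.80, and the locus had 0.36 ± 0.43. At these 3 loci the estimate was nearer to 0 than that of the called gene beside it.

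Across the 16 tested loci with a host, 9 hosts were called, 4 higher and 5 lower in FT, where 39.0% of all genes tested were called. Of the 4 called loci with a host, the host was called in the same direction for 2 (MIR22 and bta-mir-147) and was not called for 2 (bta-mir-3533 and bta-mir-12003). Signs of locus and host differed at 3 of the 16, bta-mir-3533, bta-mir-214 and bta-mir-199a-1.

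**Figure D5:**
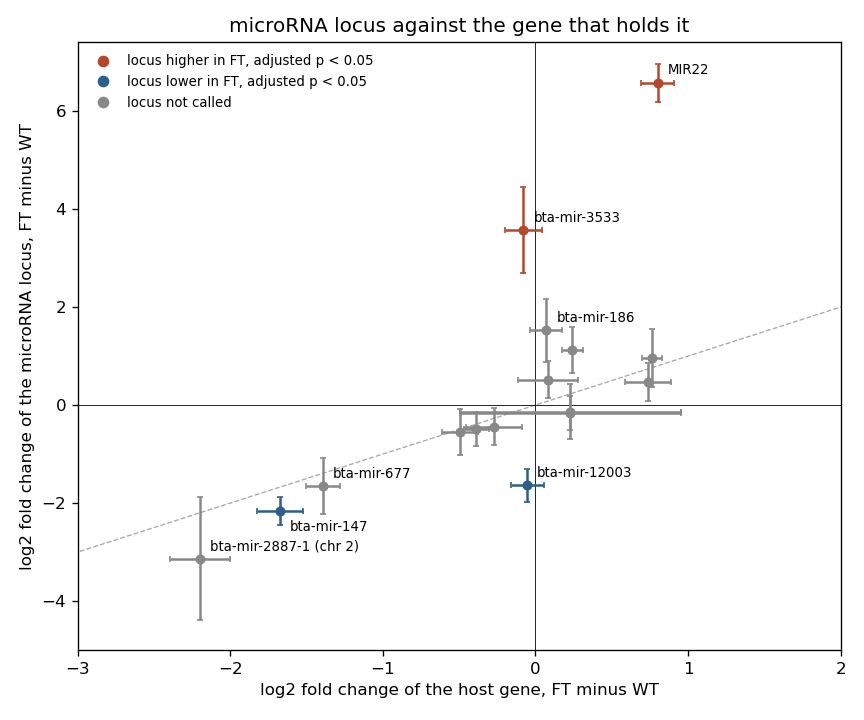
Log2 fold change, FT minus WT, of 16 microRNA loci (vertical axis) against the gene that holds each (horizontal axis), with bars for the standard errors and a dashed line of equal values. MIR22 (6.58 against 0.80), bta-mir-3533 (3.57 against -0.08), bta-mir-12003 (-1.64 against -0.05) and the uncalled bta-mir-186 (1.52 against 0.07) lie furthest from the line.

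Among loci below the filter, the highest total was 104 counts, and 35 of the 269 had at least 20. The bta-mir-145 locus, a microRNA of smooth muscle and myofibroblasts, had 3, 14 and 9 counts in FT and 3, 2 and 2 in WT. Its neighbour bta-mir-143 had 0, 5 and 6 in FT and 1, 1 and 5 in WT. On the FPKM scale bta-mir-145 stood at 0.37, 3.14 and 1.75 in FT and 0.35, 0.33 and 0.29 in WT, with FT_1 barely above WT. Neither locus passed the filter. The 4 rows of the miR-29 family, which targets collagen messages, held 0, 0 and 8 counts in FT and 8, 2 and 8 in WT in sum. No member row was found for the miR-17-92 cluster, the miR-200 family, miR-1, miR-133, miR-206, miR-122, miR-124 or miR-9. These families were therefore not analysed here.

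An exact permutation test of 3 libraries against 3 (two-sided) cannot give a p under 0.10. On log2(FPKM + 0.01) that smallest value was reached by the 15 tested loci whose FPKM ranges did not overlap, the 8 called and 7 that were not called. Ranges that do not overlap always give that value, so the test adds nothing to the count of separated loci.

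Genes of the microRNA pathway were read from the same fit. Of 40 listed genes 37 were in the table and tested, and 10 were higher and 7 lower in FT, where 20.1% and 18.9% of all genes tested were. Their median log2 fold change was -0.07 against 0.03 over all genes tested. The split depended on scaling and test, with 4 higher and 14 lower by library totals alone (all genes 2049 and 3394) and 4 and 15 by limma on either FPKM scale (all genes 1837 and 3573, and 1880 and 3529). With FT_1 left out the counts were 11 and 11, where 62.1% of all genes were called. They were 4 and 5 without WT_1, 5 and 6 without WT_2, and 6 and 6 without WT_3, beside 1516 and 1531, 1613 and 1570, and 1796 and 1741 of all genes. The core enzymes differed little. DROSHA had 6.42, 5.76 and 5.21 FPKM in FT and 7.11, 7.32 and 6.90 in WT, with a log2 fold change of -0.14 ± 0.09, and DICER1 stood at -0.09 ± 0.08, XPO5 at 0.28 ± 0.16 and AGO2 at -0.24 ± 0.11, none of them called. DGCR8, the RNA-binding partner of DROSHA, was the exception, with 12.6, 12.4 and 12.6 FPKM in FT and 8.65, 8.65 and 7.46 in WT. Its log2 fold change was 0.76 ± 0.09 (edgeR, Benjamini-Hochberg adjusted p = 0.0019).

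Lower in FT were SRSF3, a splicing factor that helps recognise primary hairpins (-1.38 ± 0.07), RAN, the GTPase that drives export (-1.26 ± 0.11), and HNRNPA1, which binds some primary transcripts (-1.06 ± 0.12). So were TSN (-0.88 ± 0.09) and TSNAX (-1.08 ± 0.17), the subunits of a nuclease that clears passenger strands, and the nuclear exonuclease XRN2 (-0.41 ± 0.08). Higher were the silencing scaffold TNRC6C (1.17 ± 0.20), the DICER1 partner PRKRA (0.67 ± 0.12), ZSWIM8, a ubiquitin ligase receptor in the decay of microRNAs (0.75 ± 0.14), and TUT4, which adds uridines to precursor let-7 (0.50 ± 0.10). All are log2 fold changes ± SE from edgeR called by Benjamini-Hochberg adjustment over all genes. Many of these proteins also serve other steps of RNA metabolism.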

How the data were processed

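Poly(A) RNA of 6 bEF libraries (FT and WT, n = 3 each) was sequenced in pairs. The submitters' processing notes name HISAT2 2.0, StringTie 1.3.0, Bowtie 0.12.2 and mm8, a mouse build. The study's methods name HISAT with a UCSC genome, and StringTie and edgeR for expression levels. The cattle build and the program that gave the counts are not given in the sources used here. The authors deposited counts per gene and, beside them, FPKM values, 1 column each per library. At the microRNA loci the counts equalled rescaled FPKM rounded up, so they need not be whole reads. Members, lists and tests were chosen with earlier results of these data known. Groups came from the sample titles.

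Counts were fitted with edgeR 4.0.16 in R 4.3.3 (TMM factors, filterByExpr, quasi-likelihood F test, group as the sole term), with Benjamini-Hochberg adjustment over all genes tested. SE is the log2 fold change divided by the square root of F. Alternatives used DESeq2 1.42.0, limma 3.58.1 on log2(FPKM + 1) and log2(FPKM + 0.1), other scalings, filters and call rules, a replicate block, and each library left out. The fits were also run on simulated counts, and the outcome is not given here. A host was a gene whose interval held the whole locus; of several, one on the same strand with the highest count was taken. Named were all tested loci with host or neighbours, listed microRNA families, and pathway genes from the 12 of smallest p (not all are given), with DROSHA, DGCR8, XPO5, DICER1 and AGO2. Marker lists covered fibroblast, epithelial, endothelial, blood, muscle, neural, cartilage and mesothelial genes. The loci bta-mir-2404-1 and RF00002 were named after their values were seen.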

Additional observations from a re-analysis of the deposited data

How the results depend on the processing

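Of the 8 called loci, all 8 kept their call with median-ratio factors, library totals alone, DESeq2 and limma on either FPKM scale, and also without FT_1. The same held where the counts of the loci were rebuilt from FPKM and rounded to the nearest whole number, an alternative chosen after seeing the data. With no filter 6 were kept and with a mean count of at least 10 there were 7. MIR22 and bta-mir-147 kept theirs in all 15 alternatives run, with log2 fold changes of 3.92 to 6.76 and -2.34 to -2.08 (adjusted p from 5.6e-12 to 0.014 and from 2.1e-09 to 0.022 over edgeR, DESeq2 and limma), and no called locus changed sign. Over the 30 loci, 383 of 450 values kept direction and side of the threshold, 34 lost a call, 14 gained one and 19 changed sign.

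The replicate block gave 1 locus higher and 1 lower in FT of 30, beside 1838 and 1741 of 13482 genes. The numbers do not pair the libraries, since they mark different fetuses, and same-numbered libraries deviated with correlations of -0.02, -0.03 and 0.04 across genes. The block also costs degrees of freedom.

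Limma called 7 loci higher and 8 lower on log2(FPKM + 1), of 73 tested, and 8 and 9 on log2(FPKM + 0.1), beside 1837 and 3573, and 1880 and 3529, of 12247 genes. Pathway genes were 4 higher and 15 lower on either scale, and 4 and 14 with library totals alone, where the median log2 fold change of all genes was -0.12 against 0.03. The rule of the study's methods, a fold of more than 1 on the log2 scale and p under 0.05 without adjustment, gave 1378 genes higher and 1208 lower, 4 and 6 loci, and 1 and 4 pathway genes. Adding that fold threshold to the adjusted p gave 1131 and 1019 genes, 4 and 4 loci, and again 1 and 4 pathway genes. A minimum of 10 counts in every library left 13 loci. Any overlap in place of the whole locus inside gave 219 loci with a host, against 214.

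Leaving out 1 library gave 1516 to 4215 genes higher and 1531 to 4337 lower, 1 to 5 loci higher and 1 to 6 lower, and 4 to 11 pathway genes higher and 5 to 11 lower, the highest counts without FT_1 each time. The sign changes were at loci that were not called. With library totals alone the log2 fold change was -0.027 for bta-mir-2299, -0.049 for bta-mir-12036 and -0.040 for bta-mir-2443. With limma on log2(FPKM + 1) it was -0.093 for bta-mir-2299, -0.041 for bta-mir-12002a and -0.019 for bta-mir-12036, and on log2(FPKM + 0.1) it was -0.11, -0.95 and -0.019. Over left-out libraries it ran from -0.12 to 0.41 for bta-mir-2299, -0.37 to 0.0046 for bta-mir-214, -0.49 to 0.10 for bta-mir-199a-1, -0.075 to 0.25 for bta-mir-12036, -0.89 to 0.14 for bta-mir-425 and -0.23 to 0.62 for bta-mir-2443. The cause of these shifts was not tested.

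Most of these loci, 269 of 299, had too few counts to be tested, and counts there are rounded up. With 1 culture per fetus, animal and culture cannot be told apart.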
